A study of Arabidopsis thaliana with 9 samples.

Results

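The genes described here are 10 members of the PUB family of Arabidopsis: PUB9 (AT3G07360), PUB12 (AT2G28830), PUB13 (AT3G46510), PUB18 (AT1G10560), PUB19 (AT1G60190), PUB22 (AT3G52450), PUB23 (AT2G35930), PUB24 (AT3G11840), PUB25 (AT3G19380) and PUB29 (AT3G18710). They were picked because the family was often bound by the transcription factor NAC103 in both assays of the series, so the number of bound members is given as a description, with no test. They are 10 of the 27444 nuclear protein-coding genes examined, and 10 of the 23 genes that carry a PUB name in the gene table used. Genes of the family without such a name there were not sought, so the other 13 need not be the rest of the family. For each of the 10 genes, all peaks were taken that overlapped its span or the 1000 bp on either side of it. This gave 87 peaks.

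PUB proteins are plant U-box ubiquitin ligases. The U-box is a fold that brings a ubiquitin-loaded conjugating enzyme to a target protein, and the target is then tagged with ubiquitin and often degraded by the 26S proteasome. In Arabidopsis PUB22, PUB23 and PUB24 dampen the immune response to microbial patterns, PUB12 and PUB13 tag the flagellin receptor FLS2, PUB18 and PUB19 restrain responses to abscisic acid and drought, and PUB25 acts on the immune kinase BIK1 and on regulators of the cold response. NAC103 is a factor of the NAC family known from the response to unfolded proteins in the endoplasmic reticulum and to DNA damage.

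NAC103 was mapped by chromatin immunoprecipitation (ChIP, 3 replicates) from whole 35S:NAC103-GFP seedlings, 5 days old, which had spent 24 h in 20 µM of MG132 and were fixed with 1% formaldehyde. The fusion is driven by the strong viral 35S promoter, and MG132 is an inhibitor of the proteasome. All ChIP values come from this line under this treatment, and the NAC103 level was not measured here. DNA affinity purification (DAP, 2 replicates) used NAC103-Halo on genomic DNA of 5-day-old Col seedlings with no such treatment, outside chromatin. Each ChIP replicate had its own input and the DAP replicates shared 1 input. No untagged ChIP was used here, so NAC103 binding cannot be told apart from signal that the GFP tag, the antibody or accessible chromatin may give, and the labels do not state whether replicates were grown separately. The lists held 4208, 14320 and 17095 ChIP peaks for replicates 1, 2 and 3, and 20792 and 21011 DAP peaks. Read totals are not in the lists, so library depth is unknown.

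Peaks lay at every one of the 10 genes. ChIP replicate 1, the shortest list, had a peak at 8 of them, where 17% of all coding genes have one in the same window. ChIP replicates 2 and 3 each had a peak at 10 of 10, against 50.8% and 59.7% of all coding genes. DAP replicate 1 had a peak at 9 of 10 (background 64.4%) and DAP replicate 2 at 10 of 10 (64.7%). The genes with a peak in all 5 lists were 8 of 10, against 9.5% of all coding genes. The exceptions were PUB24, which lacked a peak in ChIP replicate 1, and PUB13, which lacked one in ChIP replicate 1 and in DAP replicate 1.

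Peaks of an assay that overlapped were merged into regions, called reproducible when at least 2 of the 3 ChIP replicates, or both DAP replicates, had a peak in them. By this measure 9 of the 10 genes had a reproducible ChIP region (39.6% of all coding genes), 9 had a reproducible DAP region (59.9%) and the same 9 had both (25.2%). PUB13 was the gene without. Limited to peaks with a −log10 q of at least 10, the genes with both were 4, PUB9, PUB19, PUB22 and PUB23, against 3.4% of all coding genes. The spans of the 10 genes ran from 1631 to 3167 bp, with a median of 2123.5 bp against 2078 bp for all coding genes. Among the 11855 coding genes of that range of span, 27.8% had reproducible regions in both assays. Of the ChIP regions at the 10 genes, 16 of 24 were reproducible and 8 of these had a peak in all 3 replicates. Of the DAP regions, 16 of 21 were reproducible.

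**Figure D1:**
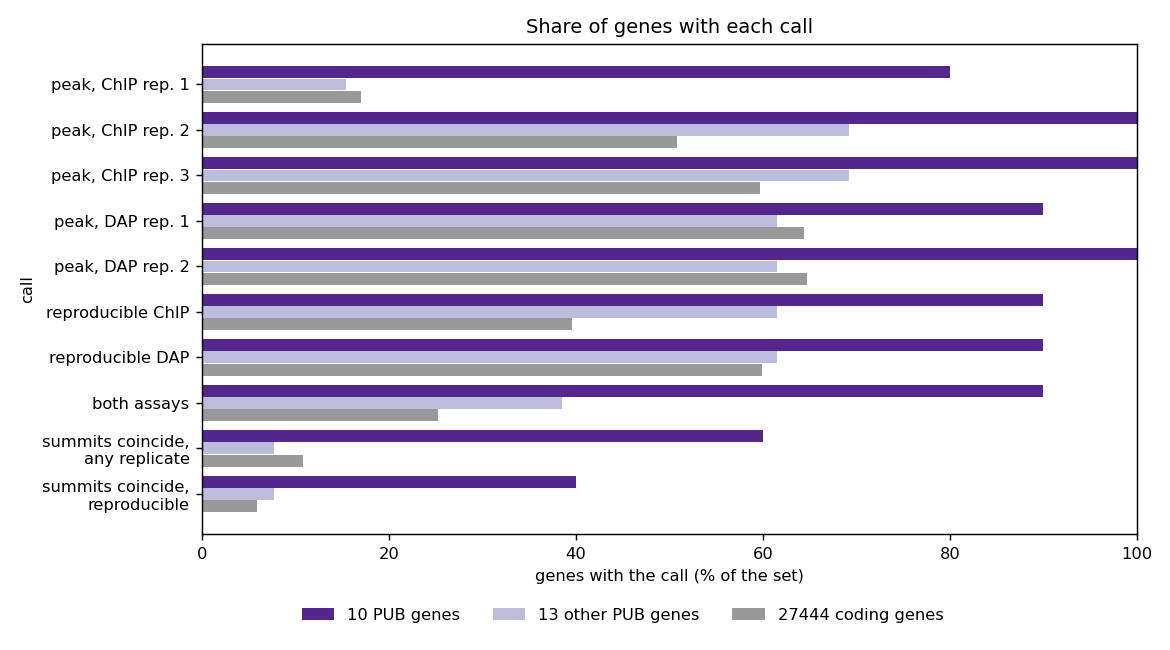
Percent of genes with each call (horizontal axis) among the 10 PUB genes, the 13 other PUB genes and all 27444 coding genes; a bar is a share of genes and carries no error. The 10 genes were chosen for frequent binding, and for reproducible regions in both assays 9 of 10 stand against 5 of 13 other PUB genes and 25.2% of coding genes.

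The deposited lists give a fold enrichment of each summit over a background, as a ratio, and this fold is the authors' own value. Its median over all nuclear peaks was 1.94, 2.06 and 2.47 in ChIP replicates 1, 2 and 3, and 2.74 and 2.71 in DAP. A higher fold in ChIP replicate 3 is thus also seen over its whole list. The number of reads piled up at a summit can be solved from its fold and p-value, on the assumption that the caller takes the ratio of pileup plus 1 to background plus 1. Exactly 1 whole number fitted within 0.01 of the −log10 p for all 87 peaks. Pileups ran from 59 to 90 reads in ChIP replicate 1, from 41 to 84 in replicate 2 and from 40 to 95 in replicate 3, and from 77 to 378 and from 95 to 398 reads in DAP replicates 1 and 2. Intervals given after a fold are exact 95% Poisson intervals of that pileup and cover counting error only. More reads stood behind the DAP summits, with medians of 159 and 157 reads against 67, 56.5 and 62 in the ChIP lists. In DAP the background was at the lowest value of its list in 36 of 37 peaks (47.2 and 49.3 reads), as it was for 97.5% and 97.3% of all nuclear peaks of those lists that could be solved. In ChIP it was at the lowest value in 21 of 50 peaks and higher in the other 29, up to 37.7 reads.

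Summit positions are given relative to the gene. Gene strand was not used here, so an end is named by its coordinate on TAIR10, lower or higher, and whether it is the start of the gene is not stated. Of the 50 ChIP summits 20 lay inside the span of the gene (40.0%), close to the 42.1% over all gene and peak pairs of the coding genes. Of the 37 DAP summits 23 lay inside (62.2%), against 51.7% over all such pairs. These shares were not tested. In 16 reproducible DAP regions the summits of the replicates lay 6.5 bp apart at the median and at most 160 bp. In 16 reproducible ChIP regions the summits spread over 63 bp at the median, and over as much as 1362 bp in a region at PUB22 that merges separate summits.

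**Figure D2:**
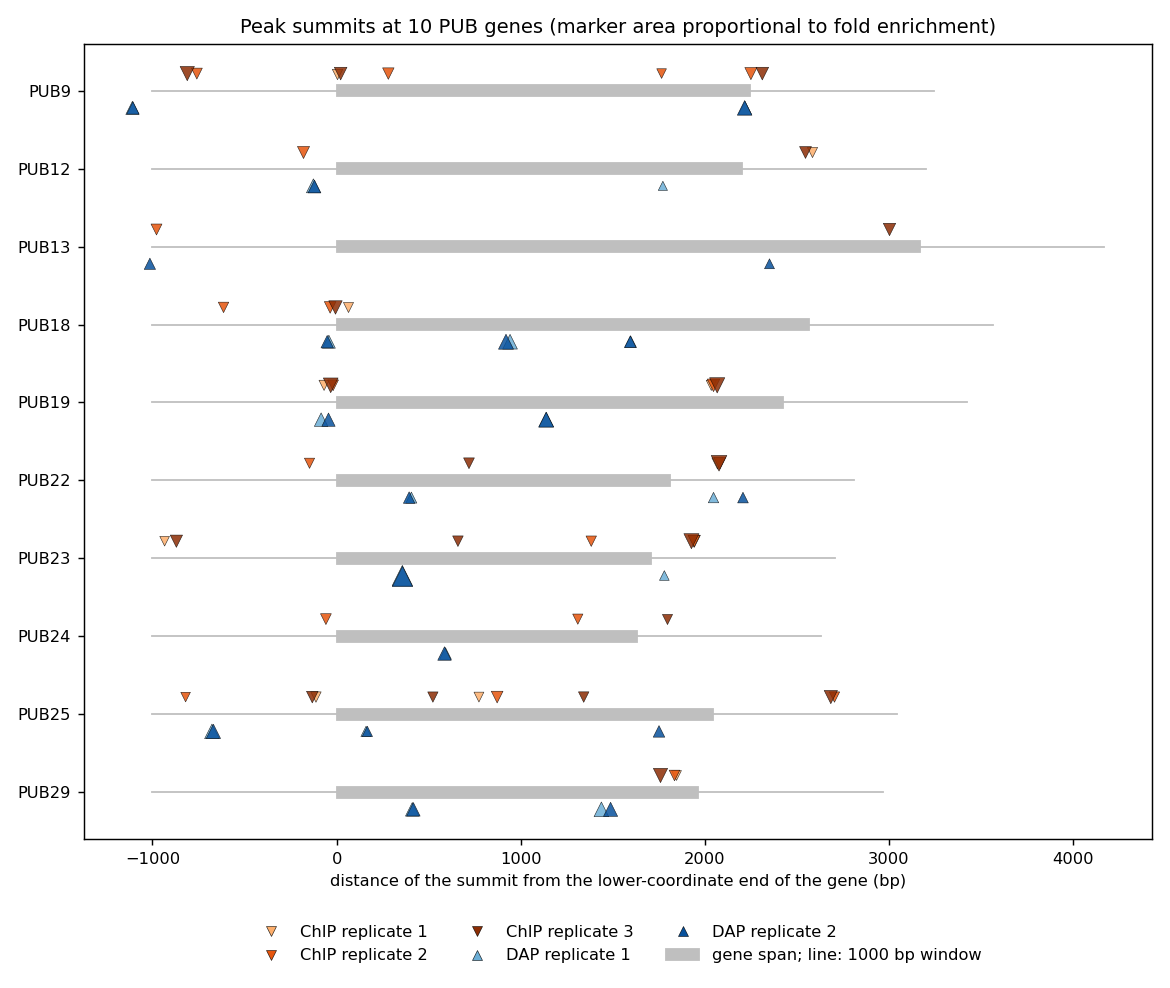
Summits of all 87 peaks by distance in bp from the lower-coordinate end of each gene (horizontal axis), ChIP above and DAP below the gene; grey boxes are gene spans, lines the 1000 bp windows, and marker area is proportional to the authors' fold. ChIP and DAP markers stand over each other at the lower end of PUB18 and PUB19 and near the higher end of PUB9 and PUB22, whereas the high DAP marker in PUB23 has no ChIP summit within 100 bp.

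A ChIP and a DAP summit were said to coincide when they lay within 100 bp of each other. By this rule 6 of the 10 genes had a coinciding pair in any replicate: PUB9, PUB12, PUB13, PUB18, PUB19 and PUB22. Over all coding genes the share was 10.8%, or 2972 genes. Only the 13652 coding genes with peaks in both assays could have such a pair. Within reproducible regions of both assays 4 genes had one, PUB9, PUB18, PUB19 and PUB22, against 5.83% of all coding genes, or 1601. Only genes with reproducible regions in both assays could have one, which were 9 of the 10 genes and 6909 of all coding genes. The shortest distance from a ChIP to a DAP summit was 43.5 bp at the median over the 10 genes and ranged from 7 bp at PUB18 to 643 bp at PUB24. It was 423 bp at the median over the 13652 coding genes with peaks in both assays. As a minimum over all pairs of a gene, this distance can only fall as peaks are added. The 10 genes had 9.5 peaks at the median, and genes with a like number of peaks were not compared. The genes were chosen on binding in both assays, so these values describe the 10 genes and not the family, and were not tested.

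**Figure D3:**
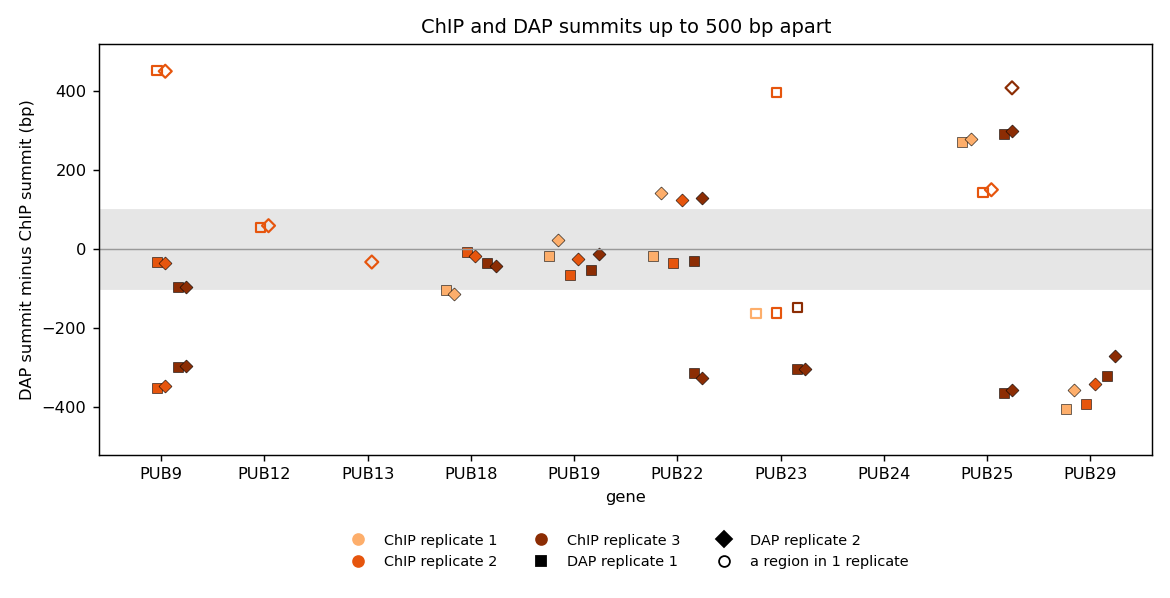
DAP summit position minus ChIP summit position in bp (vertical axis) for every pair up to 500 bp apart at each gene; colour gives the ChIP replicate, marker shape the DAP replicate, open markers have a region found in 1 replicate, and the grey band marks 100 bp to either side. All 6 pairs of PUB19 at its lower end fall in the band, between 12 and 65 bp apart, and PUB24 has no pair within 500 bp.

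PUB18 and PUB19 are close relatives that share a role in abscisic acid and drought responses, and in both of them ChIP and DAP met at the lower-coordinate end. At PUB18, on chromosome 1, the ChIP summits lay at positions 3484460, 3484364 and 3484391 in replicates 1, 2 and 3, and the DAP summits at 3484357 and 3484348. The ChIP folds were 1.96 (1.54 to 2.47), 2.60 (2.00 to 3.32) and 3.46 (2.74 to 4.32), and the DAP folds 3.23 (2.75 to 3.78) and 2.98 (2.53 to 3.49). ChIP replicates 2 and 3 coincided with both DAP replicates, 7 to 43 bp away, and ChIP replicate 1, 103 and 112 bp away, fell just outside the limit. The site covers the gene end: the summits ran from 51 bp outside it to 61 bp inside.

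At PUB19 all 5 lists had a summit within 84 bp outside the lower-coordinate end. The ChIP summits stood at 22198198, 22198247 and 22198234 of chromosome 1 and the DAP summits at 22198182 and 22198222, so that all 6 pairs coincided, 12 to 65 bp apart. It was the only one of the 10 genes where every replicate of both assays met in this way. The ChIP folds were 2.00 (1.57 to 2.53), 2.22 (1.67 to 2.91) and 4.16 (3.33 to 5.14), at percentiles of 58.7, 65.7 and 95.6 of the fold in their lists. The DAP folds were 3.50 (2.997 to 4.07) and 3.40 (2.91 to 3.95).

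Both genes also had a DAP site well inside the span with no ChIP peak on it. In PUB18 its summits lay 942 and 920 bp from the lower end with folds of 4.15 and 4.32, and in PUB19 they lay 1139 and 1138 bp from that end with folds of 4.06 and 4.30. These inner sites had a higher DAP fold than the end site of the same gene in both replicates, but only for PUB18 in replicate 2 were the counting intervals apart (3.76 to 4.93 inside against 2.53 to 3.49 at the end). PUB18 had another inner DAP site of lower fold, 2.57 and 2.63, at 1597 and 1595 bp. The genes differed in ChIP near the higher end. PUB19 had a second ChIP site there in all 3 replicates, 386, 374 and 354 bp inside the end, with folds of 2.00, 3.04 and 4.45 and no DAP peak. PUB18 had no ChIP peak near its higher end and a single one 614 bp before its lower end in replicate 2 (fold 2.11).

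PUB22, PUB23 and PUB24, which act together against pattern-triggered immunity, each had a DAP site inside the gene, 356 to 587 bp from the lower-coordinate end. This was not particular to them, as PUB29 had a DAP site at 411 and 417 bp from its lower end. PUB23 held the highest DAP fold of the 10 genes: 7.86 (7.09 to 8.69) and 7.94 (7.18 to 8.75) at positions 15083212 and 15083211 of chromosome 2, 357 and 356 bp into the gene, at a percentile of 98.1 in both lists. PUB24 had folds of 2.63 (2.20 to 3.13) and 3.50 (3.004 to 4.06) at 587 and 585 bp, and PUB22 folds of 2.32 (1.91 to 2.79) and 2.53 (2.11 to 3.004) at 406 and 394 bp. Within each DAP list PUB23 thus stood above both relatives beyond counting error. The intervals of PUB24 and PUB22 were barely apart in replicate 2 (from 3.00438 and up to 3.00414) and overlapped in replicate 1. No ChIP summit lay within 100 bp of any of these inner DAP summits, but wide ChIP peaks of replicates 2 and 3 overlapped the inner DAP peaks of PUB22 and PUB23. Over all their sites the peaks of both assays overlapped in 10 pairs at PUB22, in 7 at PUB23 and in 0 at PUB24.

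Summits of all 3 ChIP replicates lay close together beyond the higher-coordinate end of PUB22 and of PUB23. At PUB22 the summits of replicates 1, 2 and 3 lay 254, 271 and 267 bp outside that end, at 19442681, 19442698 and 19442694 of chromosome 3. Their folds were 2.41 (1.91 to 3.001), 2.64 (2.08 to 3.32) and 4.70 (3.81 to 5.74), at percentiles of 91.0, 87.2 and 98.3. The last was the highest ChIP fold at any of the 10 genes. At PUB23 the summits lay 239, 237 and 223 bp outside the higher end, at 15084798, 15084796 and 15084782 of chromosome 2. Their folds were 2.76 (2.23 to 3.39), 2.76 (2.15 to 3.48) and 4.36 (3.51 to 5.36), at percentiles of 97.4, 90.3 and 96.8. The ChIP site of each gene was thus found in all 3 replicates at much the same distance from the gene, with replicate summits at most 17 bp apart in PUB22 and 16 bp in PUB23.

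What DAP showed under these ChIP sites differed. PUB22 had a reproducible DAP region there, but of low fold: 2.09 at 19442664 and 2.19 at 19442824, at percentiles of 18.0 and 24.6 of their lists. The DAP replicate 1 summit coincided with all 3 ChIP summits, 17 to 34 bp away, and that of replicate 2 lay 126 to 143 bp away, so the coincidence at PUB22 rests on DAP replicate 1. ChIP replicate 2 also had a peak 147 bp before the lower end of PUB22 (fold 2.01), and replicate 3 an inner peak of fold 2.23. PUB23 had a DAP peak there in replicate 1 only, with a fold of 1.80 at 15084635, 147 to 163 bp from the ChIP summits. PUB23 also had a ChIP region in replicates 1 and 3 at 934 and 870 bp before its lower end (folds 1.79 and 2.89), and an inner one in replicates 2 and 3 whose summits, 1383 and 659 bp into the gene, also lay in the nested gene AT2G35935. PUB24 had weaker ChIP: a peak in replicate 2 at 58 bp before its lower end (fold 2.25), 49 bp from the neighbour AT3G11830, and a region at the higher end with folds of 2.02 and 1.98 in replicates 2 and 3. The summits of that region lay 484 bp apart, so it does not mark 1 position.

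PUB12 and PUB13 are another pair of relatives, ligases of the receptor FLS2. Their coinciding summits were each seen in a single ChIP replicate. At PUB12 the DAP summits lay at 12368094 and 12368099 of chromosome 2, 126 and 121 bp before the lower-coordinate end, with folds of 3.73 (3.21 to 4.32) and 3.14 (2.67 to 3.67). ChIP replicate 2 had a summit 55 and 60 bp away at 12368039 with a fold of 2.81 (2.19 to 3.56), and replicates 1 and 3 had none. The ChIP summit lay inside the neighbour AT2G28815 and the DAP summits were 30 and 35 bp from it, nearer than to PUB12. The reproducible ChIP region of PUB12 was at the other end, 384 and 344 bp outside it in replicates 1 and 3 with folds of 2.01 and 2.71, where DAP had no peak. A DAP peak inside the gene in replicate 1 had the lowest fold of all 37, 1.62.

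PUB13 had 4 peaks, the fewest of the 10 genes, and no reproducible region in either assay. ChIP replicate 2 and DAP replicate 2 had summits 32 bp apart at 17122749 and 17122717 of chromosome 3, with folds of 2.31 (1.77 to 2.98) and 2.45 (2.04 to 2.92). These summits lay 982 and 1014 bp before the lower end of PUB13 and inside the neighbouring gene AT3G46500. The DAP summit was thus beyond the window, and its peak was counted because it reaches into it. Without ChIP replicate 2, neither PUB12 nor PUB13 had a coinciding pair, and the nearest summits were then 772 and 649 bp apart. PUB13 also had a DAP peak inside the gene in replicate 2 (fold 1.91) and a ChIP peak in replicate 3 at 166 bp inside its higher end (fold 2.96).

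PUB25 tags BIK1, a kinase that passes on the signal of immune receptors, and had the most peaks, 14, yet no coinciding pair. Its strongest DAP site lay 677 and 669 bp before the lower end, at 6713456 and 6713464 of chromosome 3, with folds of 4.10 (3.55 to 4.72) and 3.92 (3.39 to 4.50). That site is inside the neighbour AT3G19370, as is the nearest ChIP summit, 143 and 151 bp away in replicate 2 with a fold of 1.77. ChIP and DAP summits alternated along the gene. A ChIP region 112 and 132 bp before the lower end (replicates 1 and 3, folds 2.07 and 2.60) was followed by a DAP region 160 and 167 bp inside it, with folds of 2.05 in both replicates. A broad ChIP region covered the middle of the gene in all 3 replicates, with summits from 523 to 1342 bp, and a further ChIP region lay 659 and 639 bp beyond the higher end, with folds of 2.05 and 3.38 in replicates 2 and 3. The peaks of both assays overlapped in 8 pairs at PUB25, although no summits met within 100 bp. A DAP peak near the higher end, 294 bp inside it, was found in replicate 2 only (fold 2.57).

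PUB9, whose loss alters the response to abscisic acid at germination, had 12 peaks, 4 ChIP regions and 2 DAP regions. The assays met at its higher-coordinate end on chromosome 3. The DAP summits lay at 2356858 and 2356856 with folds of 3.32 (2.82 to 3.87) and 4.10 (3.56 to 4.70), 26 and 28 bp inside the end. The ChIP summits of replicates 2 and 3 lay at 2356890 and 2356952 with folds of 2.83 (2.27 to 3.50) and 3.09 (2.38 to 3.94), 6 and 68 bp outside it. All 4 pairs coincided, 32 to 96 bp apart, and ChIP replicate 1 had no peak there. At the lower end ChIP had a region without DAP, with summits 2, 281 and 22 bp inside the gene in replicates 1, 2 and 3, with folds of 2.07, 2.52 and 3.09. A peak inside the gene in ChIP replicate 2 alone had a fold of 1.79. A further ChIP region, 759 and 811 bp before that end in replicates 2 and 3 with folds of 2.31 and 3.92, lay 295 to 350 bp from a DAP site of folds 3.32 and 2.96. The summits of that DAP site were 1109 and 1106 bp from the gene, beyond the window, and its peaks were counted because they reach into it.

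PUB29 had ChIP and DAP peaks that overlapped with separate summits. Its ChIP region lay in all 3 replicates at 121, 134 and 205 bp inside the higher-coordinate end, at 6435925, 6435912 and 6435841 of chromosome 3, with folds of 1.86 (1.46 to 2.34), 2.18 (1.63 to 2.86) and 3.92 (3.11 to 4.87). The nearest DAP summits, 6435520 and 6435570, had folds of 4.13 (3.57 to 4.74) and 3.84 (3.32 to 4.42) and lay 271 to 405 bp away. Another DAP site stood 411 and 417 bp from the lower end with folds of 3.54 and 3.50 and had no ChIP peak.

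**Figure D4:**
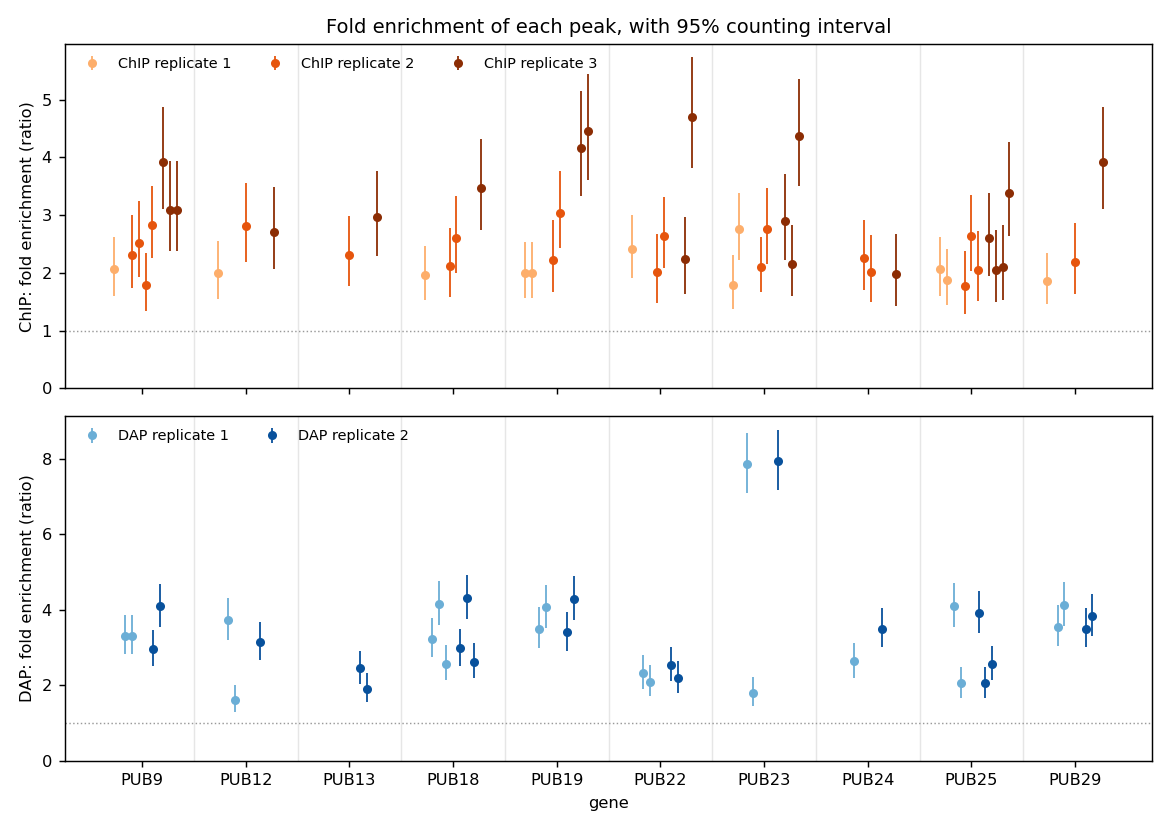
Authors' fold enrichment (ratio, vertical axis) of each of the 87 peaks by gene, ChIP above and DAP below, with exact 95% Poisson intervals of the recovered pileup; points of a list run from lower to higher coordinate and the dotted line marks a ratio of 1. The DAP peak inside PUB23 stands apart at 7.86 and 7.94. The ChIP replicate 3 peaks reach 4.70 at PUB22, in the ChIP list with the highest median fold.

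The limits of the window touched some of these results. The coinciding pair of PUB13 lay at the window edge and was lost with a window of 500 bp. The nearest peaks left out were a ChIP replicate 3 peak 38 bp outside the window of PUB18 (fold 2.55, found in 1 replicate) and a DAP replicate 1 peak 46 bp outside that of PUB29 (fold 2.09, in a reproducible region). Just inside, the window edge was crossed by peaks at PUB9, PUB13, PUB18 and PUB23. Of the 87 summits, 9 lay nearer to another gene than to the PUB gene, at PUB12, PUB13, PUB24 and PUB25, and peaks there need not belong to the PUB gene.

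Of the 13 other genes with a PUB name, 8 had a reproducible ChIP region (61.5%, against 39.6% of all coding genes) and 8 a reproducible DAP region (61.5%, near the background of 59.9%). Both kinds lay at 5 genes: PUB44, PUB17, PUB4, PUB8 and PUB38, or 38.5% against 25.2% of all coding genes. This count rests on ChIP replicates 2 and 3: it was 1 of 13 without replicate 2, where the background is 10.2%, and 2 of 13 without replicate 3 (8.96%). Coinciding summits within reproducible regions lay at 1 of the 13, PUB8 (7.69%, near the background of 5.83%). There ChIP replicate 2 (fold 2.00) lay 12 and 13 bp from the DAP summits (folds 2.49 and 2.49). PUB26, the close relative of PUB25, had a reproducible ChIP region and no DAP peak. PUB15 showed the reverse, with DAP folds up to 8.35 and 7.86 and no ChIP peak, and PUB14 had no peak in any list. PUB26, PUB15 and PUB14 were picked out after their values were seen, and the difference between the sets was not tested because the 10 genes were chosen for it.

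Genes for proteins that these ligases bind or tag were looked up as well, 12 in all. Reproducible ChIP regions lay at 10 of them (39.6% of all coding genes) and reproducible DAP regions at 8 (59.9%). Both kinds lay at 8: the immune receptor genes FLS2 and LYK5, the co-receptor gene BAK1, the immune kinase gene BIK1, the brassinosteroid receptor gene BRI1, the exocyst gene EXO70B2, the abscisic acid phosphatase gene ABI1 and the cold and stress factor gene MYB15. The share for all coding genes is 25.2%. At FLS2, BRI1, EXO70B2 and ABI1 ChIP replicate 1 had no peak in the window. Counts without ChIP replicate 2 or 3 were not made for these 12 genes. Only genes with both kinds, 8 of the 12 and 6909 of all coding genes, could have coinciding summits in reproducible regions. Such summits lay at 2 of the 12, against 1601 (5.83%) of all coding genes, and in ChIP only those of replicate 2 coincided. At BAK1 they lay 9 to 21 bp apart, with a ChIP replicate 2 fold of 2.03 and DAP folds of 2.38 and 2.65. At BRI1 they lay 70 bp apart, with a ChIP replicate 2 fold of 2.16 and a DAP replicate 2 fold of 3.22. FLS2 itself had ChIP folds up to 2.59 and 3.87 in replicates 2 and 3 and DAP folds up to 4.15 and 4.89, with the nearest summits 178 bp apart. EXO70B1 and ICE1 had a reproducible ChIP region but no reproducible DAP region, and RPN12a and PYL9 (listed as RCAR1) had neither.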

How the data were processed

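The 5 peak lists (3 ChIP, 2 DAP) were made by the authors. Per the submitters' processing notes BWA and MACS2 were used on TAIR10, with versions not given in the sources used here, and per the labels each list belongs to 1 replicate. The deposited lists hold a score, a fold enrichment as a ratio, and for each peak a p-value and a q-value as −log10, with a smallest −log10 q of 1.30. The 139 peaks on organelle genomes were left out.

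The 10 genes and all lists were chosen with earlier results of these data known. All members are named. The naming rule took, of other PUB genes, those with coinciding summits in reproducible regions (PUB8), and of the 12 target genes those with reproducible regions in both assays. The further PUB and target genes named were added after their values were seen. Gene names and spans came from a RefSeq table of TAIR10.1, whose fit to the ChIP summits was checked in 25 segments and held in 25. It gives no strand. Sequence words planned for the summits need a genome and were not analysed here. No test across samples was made, since the lists hold peaks only and the genes were chosen on them. Python 3.11.15, pandas 2.3.3 and scipy 1.17.1 were used. Alternatives are given in the closing section.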

Additional observations from a re-analysis of the deposited data

How the results depend on the processing

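The largest shifts came from stricter peaks. With a −log10 q of at least 10, reproducible regions in both assays were left at 4 of the 10 genes (3.4% of all coding genes), a reproducible ChIP region at 4 (5.44%), coinciding summits in reproducible regions at 1 (1.05%), and peaks of ChIP replicates 1 and 2 at 1 (1.02%) and 5 (7.72%); of the other PUB genes 0 had both. With 4187 top peaks per list the counts were 3 for both assays (3.17%), 3 for a reproducible DAP region (17.1%), 1 for any coinciding pair (2.05%), 0 for a coinciding pair in reproducible regions (0.856%), and 5 (18.8%) and 4 (18.9%) for DAP replicates 1 and 2, with 1 other PUB gene with both. Counting any overlap of peaks raised coinciding pairs in reproducible regions to 7 (12.2%). The other PUB genes with both numbered 3 with a window of 500 bp (19.3%) and 3 within the span alone (13.6%). The causes were not tested.

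Leaving out a replicate in turn gave 7 to 9 genes with both assays (8.96% to 27.1% of all coding genes), 7 to 8 with a reproducible ChIP region (13.8% to 37.2%), 4 to 6 with any coinciding pair (6.9% to 10.4%) and 3 to 4 in reproducible regions (1.94% to 6.0%), and 1 to 5 of the other PUB genes (8.96% to 27.1%). With a DAP replicate left out, a peak in the remaining list had to stand for a reproducible region. The resulting 9 to 10 genes with a DAP region (64.4% to 64.7%) therefore do not bear on DAP reproducibility. Nor do the counts for both assays and for coinciding pairs in reproducible regions in those settings. The low values of the other PUB genes came without ChIP replicate 2 (1) and without replicate 3 (2). PUB22 lost its pair without DAP replicate 1 and PUB9 lost its reproducible one without ChIP replicate 2 or 3. PUB18 and PUB19 kept theirs with any 1 replicate left out, but not with stricter peaks. With a −log10 q of at least 10 only PUB9 kept a reproducible pair. Some coinciding pair was then left at PUB9, PUB12, PUB18 and PUB19 (3.02% of all coding genes). With 4187 top peaks per list only PUB9 kept any pair. Of 89 alternative counts 71 stayed within 1.5 times. The per-list counts, the pairs with ChIP regions in all 3 replicates (3 genes) and the left-out replicates of other PUB genes were alternatives chosen after seeing the data. No paired analysis was possible because the results come from no test.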
